A study of Mus musculus with 10 samples.

Results

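Mitosis genes are the genes whose products drive a cell through nuclear division and its cutting into daughter cells. The list described here holds 40 such genes and leaves out the kinesin family members and the cyclins, although Cenpe, which is in it, itself codes for a kinesin motor at the kinetochore. Members were the rows of the deposited tables that carry a listed symbol. This found 39 of the 40 among 38087 genes. Knstrn was not found by its symbol and was looked up by its identifier, under the older name D2Ertd750e, and it is given apart from the counts.

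The RNA is total RNA of wild-type NIH3T3 cells, an established line of mouse embryo fibroblasts. Dishes spent 4 h at 37 °C after seeding and 16 h at 1 of 2 temperatures, 38 °C or 33 °C, before the temperature was switched. RNA was collected at 0, 1, 3, 6 and 9 h from the switch, 1 sample for each time in each course, 10 in all. Here the course that ends at 33 °C is named the downshift and the one that ends at 38 °C the upshift. All cells had the same genotype, no agent was added, and no course stayed at its starting temperature as a control. Hours in culture and hours since the switch therefore cannot be told apart within a course. The comparison of opposite switches removes only effects of time that are equal in both courses, and it does not replace such a control.

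As cells pass from G2 into mitosis, they switch on a large set of genes together. The repressive DREAM complex holds these genes down in resting and early-cycle cells, and MYB-MuvB and FOXM1 activate them late in the cycle, through promoter elements called the CHR (cell cycle genes homology region) and the CCAAT box, which binds NF-Y. In a dividing culture the summed level of these RNAs is known to follow the share of cells in G2 and mitosis, and in bulk RNA fewer such cells and less RNA per cell cannot be told apart.

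Each sample is covered by a column of counts in each of 2 numbered column series, 5 and 11 in the downshift and 2 and 13 in the upshift. Their counts were summed, and the labels do not say what the numbers stand for. The series stood apart in how much the mitosis genes moved, far more in series 2 and 5 than in series 11 and 13, and the results of each pair are given with the summed ones. No label links a series of one course to a series of the other, so these pairs were a choice made here. Column totals ran from 22403625 to 48004854 exon reads and from 15313374 to 25233405 intron reads, and a member had between 285 (Cdkn3) and 117252 (Top2a) exon reads in a sample. All 8 fibroblast markers checked had a mean above 1 RPKM (reads per kilobase, scaled to library size). Their summed level was 6308 to 7349 RPKM in the downshift and 8217 to 9472 RPKM in the upshift. Most of the sum was S100a4 (3845 to 6041 RPKM) and Vim (1285 to 1638 RPKM). In the difference between the shifts 5 of the 8 were higher, against 24.7% of all genes tested. The part of the gap between the sums in the results was not tested. Of 20 markers of 6 other cell types, Acta1 reached 4.93 RPKM, Cd68 1.83 and Cdh5 1.16, all others stayed under 1 RPKM, and Krt5, Cd3e, Myod1 and Tubb3 had no read. The 39 members lie on 15 chromosomes, with 8 on chromosome 2 and 6 on chromosome 11.

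The mitosis genes were lower at 33 °C than at 38 °C and followed the temperature in both directions. Of the 39, 36 differed between the shifts, all with the lower change after the downshift, and none went the other way. After the downshift 30 fell and none rose, and after the upshift 32 rose and none fell. The median difference between the shifts was -1.61 on the log2 scale, against 0.03 over the 10172 genes tested. These values are changes fitted from 0 to 9 h on a line in the log2 of hours plus 1, and the difference is the downshift change minus the upshift change. A call is an adjusted p under 0.05 in edgeR's quasi-likelihood test with Benjamini-Hochberg adjustment over all genes tested. By the same rule 22.1% of all tested genes were lower and 24.7% higher in the difference, 15.9% fell after the downshift and 14.9% rose after the upshift. All 39 members passed the filter of a mean exon level of at least 1 RPKM.

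The largest differences belonged to Cenpf at -3.08 ± 0.22 (SE), Aurka at -2.90 ± 0.30, Ckap2 at -2.68 ± 0.21, Ube2c at -2.55 ± 0.30 and Hmmr at -2.49 ± 0.36. A kinetochore protein, a kinase of the spindle poles, spindle microtubule binders and an enzyme of anaphase thus head the order. The 3 members that did not pass the test were Cdc25b, Cdca3 and Melk. Knstrn, a spindle and kinetochore adaptor, had a difference of -0.87 ± 0.22 (SE; adjusted p = 0.00862). It rose by 0.71 after the upshift (adjusted p = 0.00672), and its downshift change was -0.16 (adjusted p = 0.452).

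**Figure D1:**
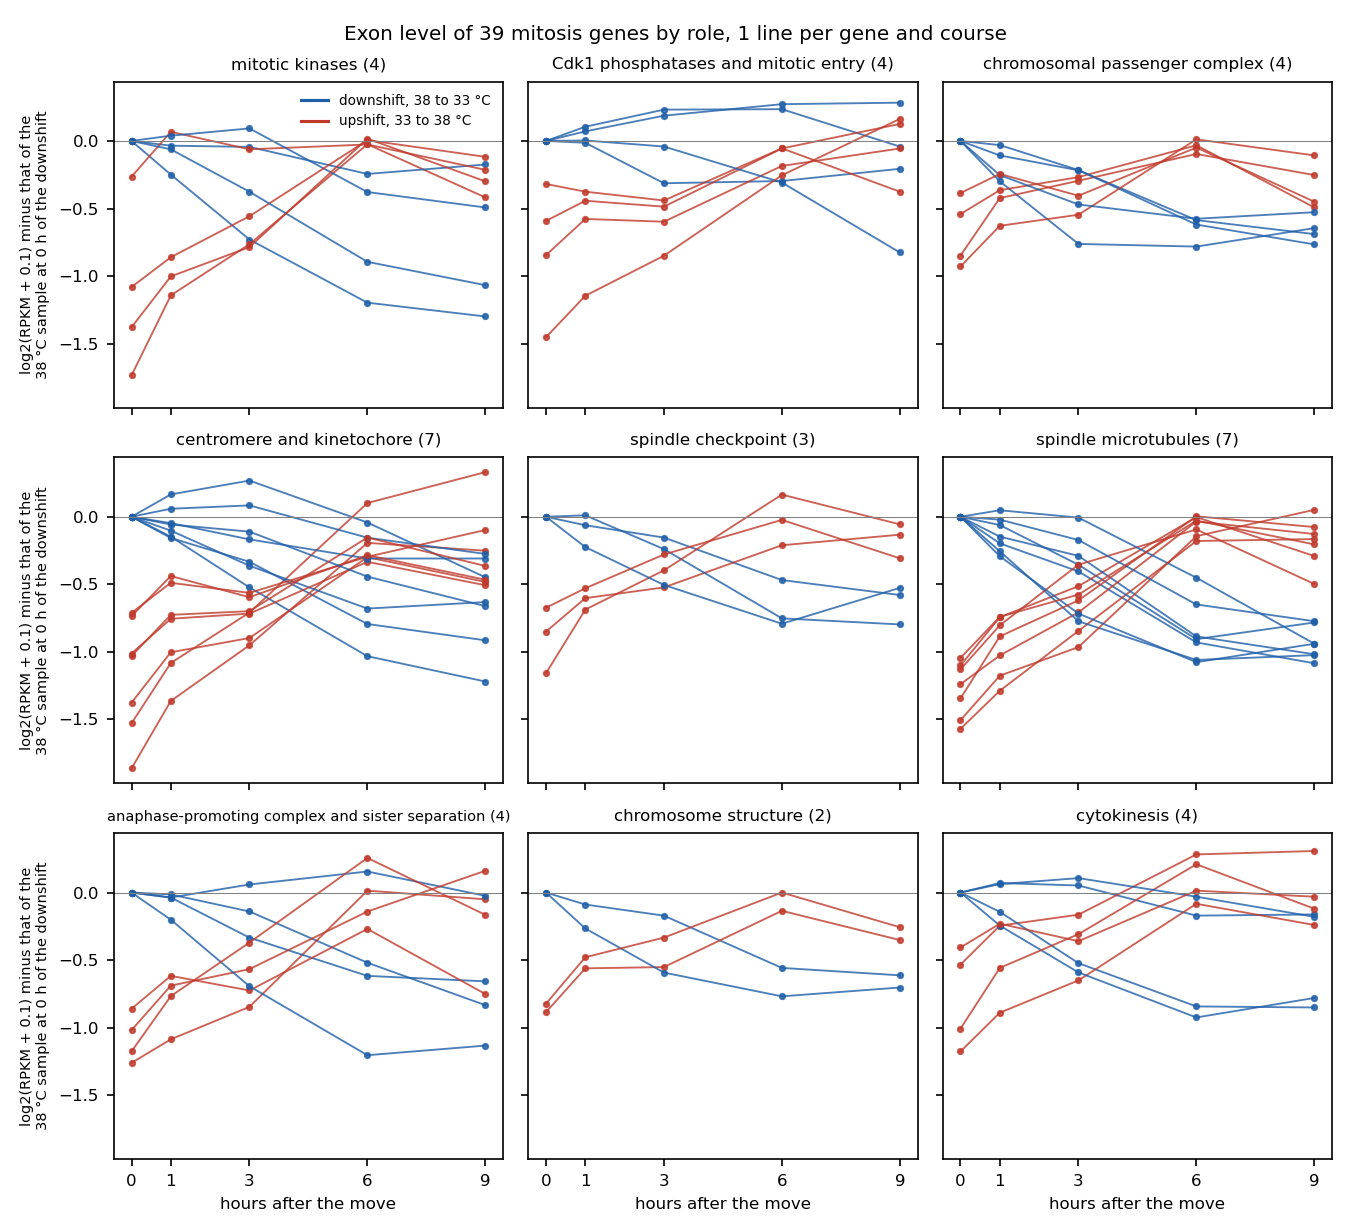
Exon level of the 39 mitosis genes, 1 panel per role, against hours after the move. The vertical axis is log2(RPKM + 0.1) minus the same gene's value in the 38 °C sample at 0 h of the downshift, and each line is 1 gene in 1 course with 1 sample per time. Every red line (upshift) starts below 0, and the red line lies above the blue one of the same gene for 8 genes at 3 h and for 35 at 6 h.

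Because the members moved together, their promoters were read from RefSeq (assembly GRCm38.p6), in windows of 250 bases before to 50 bases after a start site. The table holds 37 windows for 34 of the 40 members and 32851 windows in all. The search covered both strands for the CHR element (TTTGAA or TTCGAA), the CCAAT box (CCAAT), the TATA box (TATAAA) and an E2F site. A CHR element was found in 25 of 34 members (73.5%), against 19.2% of all windows, and a CCAAT box in 26 of 34 (76.5%), against 37.4%. Both stood together in 23 members (67.6%), against 7.52% of all windows. Of the CHR elements in the members' windows, 18 of 33 began after the RefSeq start, and with only the bases before the start the count was 11 of 34 members (32.4%), against 17.1%. The CCAAT count stayed at 26 of 34 with those bases only, against 33.8%, and 42 of the 64 boxes lay within 100 bases before the start. The TATA letters were in no member's window, against 13.6% of all, and the E2F letters in none, against 2.26%. One CHR element overlapped a CCAAT box. These are matches of letters and show nothing of what binds there.

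The stretches below are 160 bases that end before the start, on the gene's own strand and read 5′ to 3′, with CHR elements and CCAAT boxes in capitals on whichever strand they lie. They show the members with the 5 largest exon differences, Cdc20 and Top2a for their CHR elements before the start, and Melk, the member with the smallest difference. Positions are chr1:189688087-189688246 for Cenpf, chr2:172370571-172370730 for Aurka, chr8:22185820-22185979 for Ckap2 and chr11:40733438-40733597 for Hmmr, all on the minus strand. Ube2c lies at chr2:164769738-164769897 on the plus strand, Cdc20 at chr4:118437353-118437512 and Top2a at chr11:99024190-99024349 on the minus strand, and Melk at chr4:44300716-44300875 on the plus strand.
Cenpf: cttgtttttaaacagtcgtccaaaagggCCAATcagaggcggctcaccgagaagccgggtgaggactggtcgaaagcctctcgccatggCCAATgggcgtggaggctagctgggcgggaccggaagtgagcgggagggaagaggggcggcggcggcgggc
Aurka: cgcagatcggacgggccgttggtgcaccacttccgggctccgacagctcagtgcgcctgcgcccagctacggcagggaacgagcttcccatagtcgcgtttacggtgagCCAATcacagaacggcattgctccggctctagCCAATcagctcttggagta
Ckap2: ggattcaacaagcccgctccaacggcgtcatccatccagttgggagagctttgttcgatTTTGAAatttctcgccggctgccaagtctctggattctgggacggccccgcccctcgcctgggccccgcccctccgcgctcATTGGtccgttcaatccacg
Ube2c: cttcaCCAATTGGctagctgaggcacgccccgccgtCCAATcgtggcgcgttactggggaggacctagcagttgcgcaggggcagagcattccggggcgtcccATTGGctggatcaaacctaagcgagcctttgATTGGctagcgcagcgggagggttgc
Hmmr: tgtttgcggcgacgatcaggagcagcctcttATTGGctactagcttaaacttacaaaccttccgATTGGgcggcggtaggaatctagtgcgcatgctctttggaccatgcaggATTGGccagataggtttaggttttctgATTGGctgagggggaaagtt
Cdc20: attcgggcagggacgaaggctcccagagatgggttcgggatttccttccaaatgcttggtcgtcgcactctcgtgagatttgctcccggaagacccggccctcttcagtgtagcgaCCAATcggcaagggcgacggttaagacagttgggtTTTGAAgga
Top2a: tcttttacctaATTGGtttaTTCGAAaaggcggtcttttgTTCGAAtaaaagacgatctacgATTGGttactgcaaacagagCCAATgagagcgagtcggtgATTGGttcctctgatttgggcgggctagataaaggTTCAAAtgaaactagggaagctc
Melk: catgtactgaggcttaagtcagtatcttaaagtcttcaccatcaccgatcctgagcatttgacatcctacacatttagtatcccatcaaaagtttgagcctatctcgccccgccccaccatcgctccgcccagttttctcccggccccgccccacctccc
Each stretch but that of Melk holds at least 1 CCAAT box, and those of Ckap2, Cdc20 and Top2a also hold a CHR element. The CHR matches of Cenpf, Aurka and Hmmr begin after the start, outside the stretch shown. That of Ube2c begins at position -29, before the start, but its stretch ends 31 bases short of the RefSeq start and so leaves it out. Nusap1, with a difference of -2.45 ± 0.20 (SE), has no CHR or CCAAT match in its window. Across the members the median exon difference was -1.95 in the 26 with a CCAAT box and -1.10 in the 7 tested members with a window and no box. The ranges overlapped, from -3.08 to -0.37 with a box and from -2.45 to -0.20 without. For the CHR element the medians were -1.91 in the 25 with it and -1.445 in the 8 without. Neither split was tested.

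Mitotic kinases start and pace division. Aurka (Aurora A, centrosome maturation and spindle assembly), Plk1 (Polo-like kinase, from mitotic entry to cytokinesis) and Nek2 (centrosome separation) all fell after the downshift and rose after the upshift, and Melk did neither. Aurka exons had 83.8, 70.5, 50.5, 36.5 and 34 RPKM at 0, 1, 3, 6 and 9 h of the downshift. At the same times of the upshift they had 25.1, 37.9, 49.3, 82.4 and 62.7 RPKM. The 38 °C start and the 6 h upshift sample were nearly level, and the 33 °C start was the lowest of all 10. Levels of single members, here and below, are of the summed columns unless a series is named. In series 11 and 13 alone Aurka had 57.6 RPKM at the 38 °C start and 41.2 and 44.5 RPKM at 6 and 9 h of the upshift. The fitted changes of Aurka on the summed columns were -1.45 ± 0.20 (SE; adjusted p = 0.00192) after the downshift and 1.45 ± 0.21 (SE; adjusted p = 0.00126) after the upshift. Plk1 had 59.2, 56.7, 45.6, 31.8 and 28.2 RPKM in the downshift. In the upshift it had 22.7, 29.5, 34.3, 59.9 and 48.1 RPKM, so that, as for Aurka, 6 h was the highest upshift sample. The difference was -2.42 ± 0.30 (SE; adjusted p = 0.000243) for Plk1 and -1.61 ± 0.26 (SE; adjusted p = 0.000883) for Nek2.

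Melk, an AMPK-related kinase of proliferating cells, was nearly flat. Its exon levels were 16.6, 16.2, 16.1, 14 and 14.7 RPKM in the downshift and 13.8, 17.4, 15.9, 16.3 and 14.3 RPKM in the upshift. The courses overlapped throughout, and the highest upshift sample was the one at 1 h. The difference was -0.20 ± 0.19 (SE; adjusted p = 0.4).

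The Cdk1 phosphatases and other entry factors were the least uniform role, with 2 of 4 called in the difference. Cdc25b and Cdc25c remove the inhibitory phosphates from Cdk1, Cdkn3 is a Cdk-binding phosphatase, and Cdca3 directs the destruction of the entry inhibitor Wee1. Cdkn3 exons had 4.17, 4.18, 4.05, 3.35 and 2.31 RPKM in the downshift. They had 1.46, 1.83, 2.27, 3.48 and 4.68 RPKM in the upshift, the lowest sample at its start and the highest at its end. The difference was -2.46 ± 0.34 (SE; adjusted p = 0.000419). Cdc25c had 7.3, 7.86, 8.59, 8.61 and 7.09 RPKM in the downshift, highest at 3 and 6 h, and its change there was 0.05 ± 0.15 (SE; adjusted p = 0.833). Its upshift levels were 4.02, 4.86, 4.79, 6.41 and 7.02 RPKM, and it rose by 0.71 ± 0.14 (SE; adjusted p = 0.00513).

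Cdca3 was higher at 9 h than at 0 h of both courses. It had 31.7, 33.3, 36.1, 38.3 and 38.6 RPKM in the downshift and 21, 23.3, 22.6, 30.5 and 34.6 RPKM in the upshift. The upshift rise was 0.67 ± 0.12 (SE; adjusted p = 0.00247), the downshift change was 0.29 ± 0.12 (SE; adjusted p = 0.0841) and missed the threshold, and the difference was -0.38 ± 0.16 (SE; adjusted p = 0.0786). Cdc25b stayed between 23.7 and 32.2 RPKM in all 10 samples. In order of time it had 32.2, 31.9, 25.9, 26.2 and 27.9 RPKM in the downshift and 25.8, 24.8, 23.7, 31 and 24.8 RPKM in the upshift, with 0 h the highest sample of the former and 6 h of the latter. The difference of its exon reads was -0.37 ± 0.21 (SE; adjusted p = 0.162).

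The chromosomal passenger complex corrects faulty attachments of chromosomes and later guides cytokinesis. Its kinase is Aurkb, and Incenp (the scaffold), Birc5 (survivin) and Cdca8 (borealin) place it. All 4 fell after the downshift and 2, Birc5 and Cdca8, rose after the upshift. Cdca8 had 23.7, 23.2, 20.4, 15.4 and 13.9 RPKM in the downshift. In the upshift it had 12.4, 15.3, 16.2, 23.9 and 22 RPKM and returned to the 38 °C level by 6 h. The difference was -1.66 ± 0.21 (SE; adjusted p = 0.000283) for Cdca8 and -1.28 ± 0.20 (SE; adjusted p = 0.00078) for Birc5. Incenp had the smallest difference of the complex, -0.56 ± 0.21 (SE; adjusted p = 0.0462), with 39.1, 32.8, 28.2, 26.2 and 27.1 RPKM in the downshift. Its upshift samples had 29.9, 33, 29.5, 37.8 and 28.6 RPKM, with the sample at 6 h the highest and those at 0 and 9 h close together. Aurkb, at -0.89 ± 0.28 (SE; adjusted p = 0.026), also had its highest upshift sample at 6 h, with 34.4, 38.9, 41.6, 49 and 35.6 RPKM in order of time. Neither the upshift change of Incenp (-0.02 ± 0.15, SE) nor that of Aurkb (0.18 ± 0.21) passed the test, and the calls of both were lost when some samples were left out.

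All 7 centromere and kinetochore members differed between the shifts. Cenpa is the histone H3 variant that marks the centromere, Cenpf and Cenpe bind the outer kinetochore in mitosis, and Ndc80 and Nuf2 form the microtubule-binding complex that Ska1 and Spag5 assist. Cenpf had 31.8, 28.7, 22.1, 15.5 and 13.6 RPKM in the downshift, each sample lower than the one before. In the upshift it had 8.67, 12.3, 16.4, 27.8 and 26.7 RPKM, and the last 2 samples lay above all downshift samples but those at 0 and 1 h. The downshift change was -1.35 ± 0.16 (SE; adjusted p = 0.00143) and the upshift change 1.73 ± 0.16 (SE; adjusted p = 0.00021). Ska1 had the smallest difference of this role, -0.54 ± 0.18 (SE; adjusted p = 0.0286). It had 8.56, 8.28, 7.61, 6.89 and 6.89 RPKM in the downshift and 5.1, 6.29, 5.63, 7.01 and 6.17 RPKM in the upshift, whose samples lay below the 38 °C start throughout.

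Cenpa was 1 of 4 members, with Nek2, Nuf2 and Racgap1, whose highest downshift sample was that at 3 h. Its exon levels in the downshift were 20.5, 23, 24.7, 19.9 and 15 RPKM, higher at 1 and 3 h than at the start and clearly lower at 9 h alone. Upshift levels were 7.04, 9.63, 12.5, 22 and 25.8 RPKM, with the highest sample of all 10 at 9 h. The upshift rise was 1.84 ± 0.23 (SE; adjusted p = 0.000639), and the downshift change of -0.43 ± 0.23 (SE; adjusted p = 0.184) missed the threshold. Of the other members, Cenpe differed by -1.97 ± 0.21 (SE), Spag5 by -1.32 ± 0.22, Ndc80 by -1.29 ± 0.17 and Nuf2 by -0.82 ± 0.18. Cenpe fell and rose by nearly the same amount, -1.01 ± 0.15 and 0.96 ± 0.15.

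Spindle checkpoint kinases hold anaphase until all chromosomes are attached. Bub1b (BubR1) binds and inhibits the anaphase-promoting complex, and Bub1 and Ttk (Mps1) load the checkpoint proteins onto kinetochores. All 3 fell after the downshift, and Bub1 and Bub1b rose after the upshift. Bub1b had 54.8, 55.2, 46.4, 32.5 and 31.5 RPKM in the downshift, with no loss at 1 h. In the upshift it had 24.5, 34, 41.6, 61.4 and 52.7 RPKM and passed its 38 °C starting level at 6 h. Its difference was -2.13 ± 0.26 (SE; adjusted p = 0.000229). Ttk had 12.4, 10.6, 8.71, 7.12 and 8.58 RPKM in the downshift, with the lowest sample at 6 h, and 7.74, 8.56, 10.2, 12.2 and 10 RPKM in the upshift. The difference was -1.20 ± 0.23 (SE; adjusted p = 0.00223) for Ttk and -1.26 ± 0.14 (SE; adjusted p = 0.000167) for Bub1, and the upshift change of Ttk was 0.45 ± 0.17 (SE; adjusted p = 0.0591).

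Genes of the spindle microtubules had the largest median difference of the 9 roles, -2.37, with all 7 called in the downshift, the upshift and the difference. Tpx2 activates Aurora A on the spindle, Hmmr and Dlgap5 (HURP) support spindle assembly, Nusap1 bundles microtubules near chromosomes, Ckap2 and Ckap2l bind spindle microtubules, and Gtse1 stabilises microtubules and restrains p53 in G2. Ckap2 had 56.3, 49.1, 42.5, 29.5 and 26.5 RPKM in the downshift and 18.9, 23, 31.3, 49.7 and 50.2 RPKM in the upshift. The downshift values decline at every step, and the upshift values climb at every step. Its changes were -1.18 ± 0.15 (SE; adjusted p = 0.0015) and 1.502 ± 0.15 (SE; adjusted p = 0.000301). Tpx2, with the smallest difference of the role, had 81.6, 80.4, 72.4, 52 and 47.7 RPKM in the downshift and was nearly level for the first hour. It had 39.5, 48.8, 54.7, 80 and 70.8 RPKM in the upshift, and its difference was -1.76 ± 0.23 (SE; adjusted p = 0.000328).

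Hmmr stayed level for 3 h of the downshift and then dropped, with 44.2, 45.7, 44, 32.3 and 23 RPKM. Its upshift levels were 15.5, 19.5, 22.6, 40 and 45.8 RPKM. Gtse1 was already lower at 1 h, with 66.4, 55.6, 38.8, 31.8 and 32.6 RPKM in the downshift. It had 30.3, 38, 51.9, 62.2 and 47 RPKM in the upshift. These members show the range of times at which the decline was seen within the role. The differences were -2.49 ± 0.36 (SE) for Hmmr, -1.97 ± 0.29 for Gtse1, -2.45 ± 0.20 for Nusap1, -2.37 ± 0.25 for Dlgap5 and -1.94 ± 0.26 for Ckap2l.

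Anaphase is set off by Cdc20, which activates the anaphase-promoting complex, and by Ube2c, its ubiquitin-conjugating enzyme. They destroy securin (Pttg1) and free separase (Espl1) to cut cohesin. All 4 differed between the shifts. Ube2c had 59.1, 51.4, 36.5, 25.6 and 26.9 RPKM in the downshift, and its last 2 samples lay close to the 33 °C start of the upshift. The upshift samples had 26.1, 34.7, 45.7, 70.6 and 52.7 RPKM, with 6 h above every downshift sample. The changes were -1.34 ± 0.21 (SE; adjusted p = 0.00254) and 1.22 ± 0.22 (SE; adjusted p = 0.00291). Cdc20 was the most abundant member per length at 38 °C, with 205, 203, 186, 143 and 115 RPKM in the downshift and 85.5, 96.5, 114, 207 and 198 RPKM in the upshift. Its difference was -2.17 ± 0.29 (SE; adjusted p = 0.000368).

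Securin rose after the upshift and was not called after the downshift. Pttg1 had 23.6, 23, 24.6, 26.3 and 23.2 RPKM in the downshift, all samples within a narrow range, and 11.6, 14.6, 15.9, 21.4 and 26.4 RPKM in the upshift, higher at each time than at the one before. The upshift change was 1.14 ± 0.12 (SE; adjusted p = 0.000397), and the downshift change was 0.04 ± 0.12 (SE; adjusted p = 0.815). Espl1 was called after the downshift, at -0.65 ± 0.18 (SE; adjusted p = 0.02), and had an upshift change of 0.24 ± 0.18 (SE; adjusted p = 0.341). It had 27.5, 26.8, 21.8, 17.9 and 17.4 RPKM in the downshift and 15.1, 17.9, 16.6, 22.8 and 16.3 RPKM in the upshift, where only the sample at 6 h stood clear of the rest.

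Top2a, the topoisomerase that untangles sister chromatids, and Mki67, which coats mitotic chromosomes and is the antigen Ki-67, make up the chromosome structure role. Both fell after the downshift and rose after the upshift. Top2a had 184, 153, 122, 108 and 113 RPKM in the downshift, with most of the loss in the first 3 h. It had 104, 132, 146, 184 and 154 RPKM in the upshift and matched the 38 °C start at 6 h. Mki67 had 134, 126, 119, 91 and 87.6 RPKM in the downshift and 72.5, 90.8, 91.4, 122 and 105 RPKM in the upshift. Their differences were -1.39 ± 0.19 (SE; adjusted p = 0.000398) and -1.24 ± 0.20 (SE; adjusted p = 0.000834).

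Cytokinesis members build and close the cleavage furrow. Prc1 bundles the central spindle, Racgap1 and Ect2 control RhoA at the cell equator, and Anln (anillin) links the furrow to actin. All 4 rose after the upshift, and Ect2 and Prc1 fell after the downshift. Ect2 had 33.8, 30.6, 23.5, 18.8 and 18.7 RPKM in the downshift and 14.9, 18.2, 21.5, 31.9 and 28.6 RPKM in the upshift, and its difference was -1.999 ± 0.19 (SE; adjusted p = 0.000108). Racgap1, the partner of Ect2 at the central spindle, had the smallest difference that was still called, -0.50 ± 0.17 (SE; adjusted p = 0.0329). It had 52, 54.3, 56, 50.9 and 45.9 RPKM in the downshift and 39.2, 44.3, 40.5, 52.5 and 50.9 RPKM in the upshift, and the courses were close to each other from 6 h on. The difference was -1.91 ± 0.24 (SE; adjusted p = 0.000288) for Prc1 and -1.08 ± 0.15 (SE; adjusted p = 0.000387) for Anln. Anln missed the threshold in the downshift, at -0.30 ± 0.10 (SE; adjusted p = 0.0506).

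**Figure D2:**
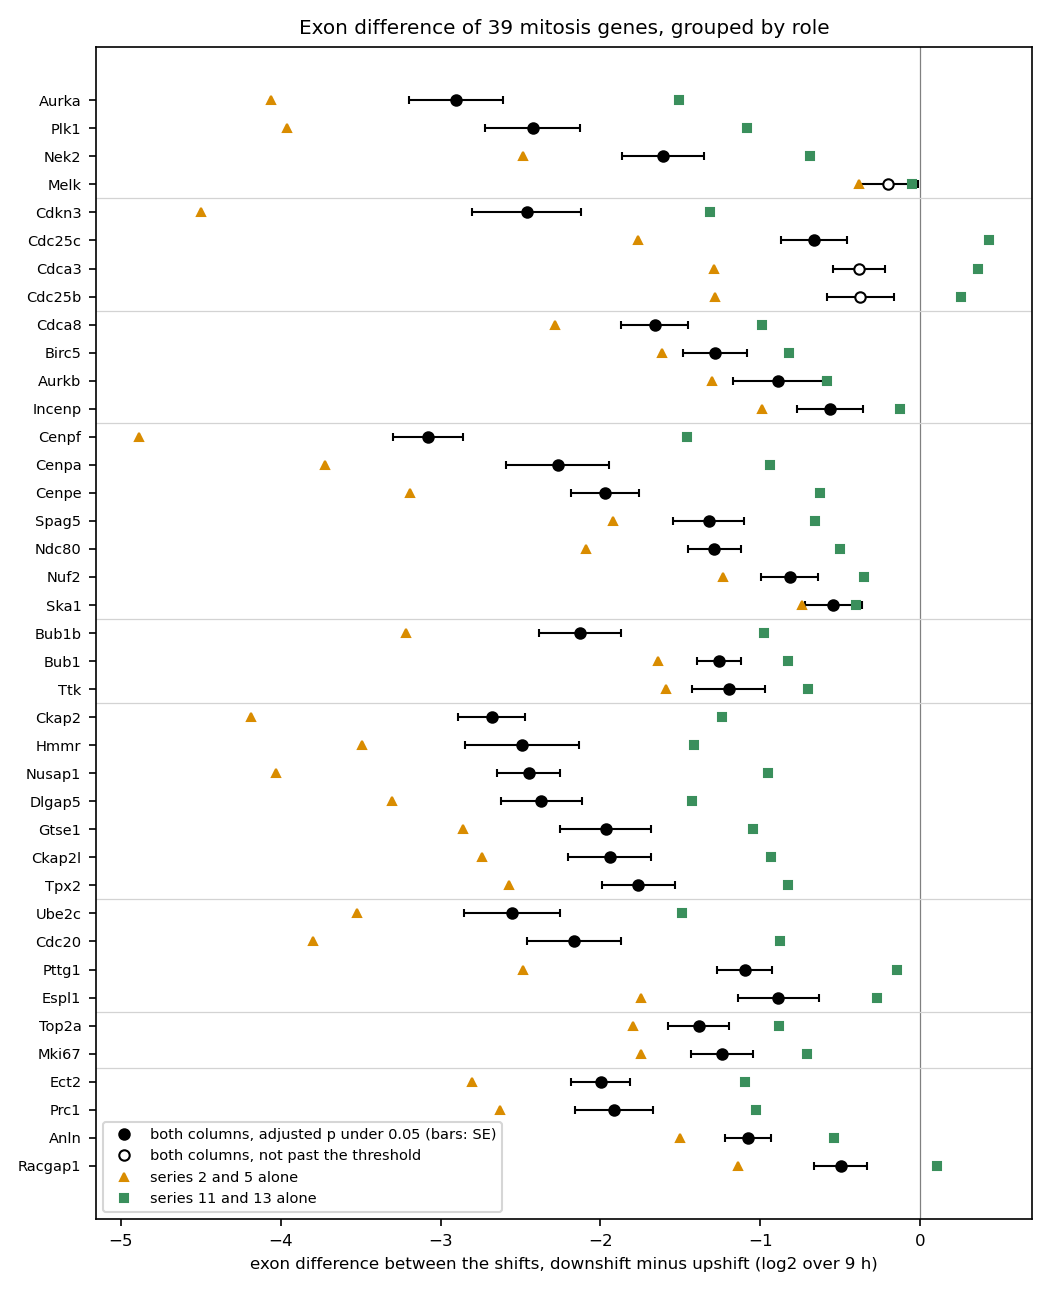
Exon difference between the shifts for each of the 39 mitosis genes, grouped by role, as the log2 change over 9 h of the downshift minus that of the upshift. Circles are the fit on the summed columns with SE bars, filled where the adjusted p is under 0.05, and triangles and squares are the fits on each pair of column series alone. Only Melk, Cdca3 and Cdc25b are open, and the squares of Cdc25b, Cdc25c, Cdca3 and Racgap1 lie above 0.

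The size of the change depended on the pair of column series. The median difference was -2.49 in series 2 and 5, with 37 members called lower, and -0.82 in series 11 and 13, with 28 called lower. The share of all genes called is not given for these fits, and the 22.1% lower belongs to the fit on the summed columns. In 35 of the 39 members both pairs gave a negative difference. The exceptions were Cdc25b, Cdc25c, Cdca3 and Racgap1, all negative in series 2 and 5 and positive in series 11 and 13, where none of them passed the test. The values there were 0.26 for Cdc25b, 0.43 for Cdc25c, 0.37 for Cdca3 and 0.11 for Racgap1. The mean of both shifts, which measures a change with time whatever its direction, was higher for 3 members, Cdca3 at 0.48 ± 0.08 (SE; adjusted p = 0.0159), Cenpa at 0.71 ± 0.16 (SE; adjusted p = 0.0459) and Pttg1 at 0.59 ± 0.09 (SE; adjusted p = 0.00941). In the background 1.29% of genes were. None of these 3 calls was made in series 11 and 13 alone. Leaving out single samples left between 30 and 37 members called in the difference, and the calls of Aurkb, Cdc25c, Espl1, Incenp, Racgap1 and Ska1 were lost in at least 1 such fit.

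The starting samples, after 16 h at each temperature, were compared as levels without a test, since each has 1 sample. The 38 °C start is covered by series 5 and 11 alone and the 33 °C start by series 2 and 13 alone. In any comparison of levels between the courses, differences of temperature and of series therefore cannot be told apart. All 39 members were lower at 33 than at 38 °C, by a median of 2.03-fold, and 22 by at least 2-fold, against 2.52% of all genes. Cenpf was 3.64-fold lower, Aurka 3.33-fold, Ckap2 2.98-fold, Cenpa 2.89-fold and Hmmr 2.84-fold. At the other end Melk was 1.2-fold lower, Cdc25b 1.25-fold and Incenp 1.31-fold. In series 2 and 5 alone 26 members passed 2-fold, and in series 11 and 13 alone 1 did, although all 39 were lower there too, by a median of 1.61-fold. Of all 10172 genes 575 passed it in the former pair and 262 in the latter.

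The decline after the downshift built up slowly. No member was at least 2-fold lower than at 0 h after 1 or 3 h, when 0.0885% and 0.521% of all genes were. At 6 h 5 members had passed that mark and at 9 h 7, against 1.26% and 1.49% of all genes. The median of the members was -0.06 on the log2 scale at 1 h, -0.24 at 3 h, -0.62 at 6 h and -0.69 at 9 h. The upshift medians were 0.31 at 1 h, 0.47 at 3 h, 0.94 at 6 h and 0.82 at 9 h. Introns had medians of -0.29 at 1 h and -0.51 at 3 h of the downshift and of 0.10 and 0.38 at those times of the upshift. Over all genes tested on introns these medians were -0.020 and -0.054 in the downshift and 0.036 and 0.105 in the upshift. The pace of the shifts was not compared by a test. No member was at least 2-fold higher at 1 or 3 h, as 0.305% and 0.698% of genes were. By 6 h 19 members had passed it and at 9 h 13, against 1.49% and 1.131% of all genes. In series 2 and 5 alone, 4 members were at least 2-fold higher at 1 h, 17 at 3 h, 28 at 6 h and 22 at 9 h of the upshift, and 3 were lower at 3 h, 20 at 6 h and 17 at 9 h of the downshift. Of all 10172 genes in that pair, 57, 187, 330 and 288 were higher and 152, 247 and 283 lower at the same times. In series 11 and 13 no member passed 2-fold at any time of either course, and the medians reached -0.39 and 0.44 at 9 h. Few genes did so there, with 130 of all 10172 at least 2-fold lower at 9 h of the downshift and 82 higher at 9 h of the upshift.

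The highest upshift sample was that at 6 h for 28 members, that at 9 h for 10 and that at 1 h for Melk. The 10 were Anln, Bub1, Cdc25c, Cdca3, Cdkn3, Cenpa, Ckap2, Hmmr, Nuf2 and Pttg1. This time differed between the column series, with 6 h highest for 32 members in series 2 and 9 h highest for 34 members in series 13. In the downshift 28 members were highest at 0 h, and 13 were lowest at 6 h and 23 at 9 h.

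Levels at 9 h of each course were also set beside the 0 h sample of the other course, which was at the same temperature. These samples differ in column series and in hours since seeding as well, and the parts of these were not tested. At 33 °C, 9 h after the downshift, the members stood at a median of 1.25-fold above cells held there for 16 h, and 37 of 39 were higher. Only Cenpa was at least 2-fold higher (2.12-fold), where 0.560% of all genes were, and Pttg1 was next at 1.99-fold. At 38 °C, 9 h after the upshift, the members stood at a median of 1.15-fold below cells held there for 16 h. None was at least 2-fold lower, where 0.393% of all genes were. Espl1 was the farthest below, by 1.69-fold, and Cenpa the farthest above, by 1.25-fold.

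**Figure D3:**
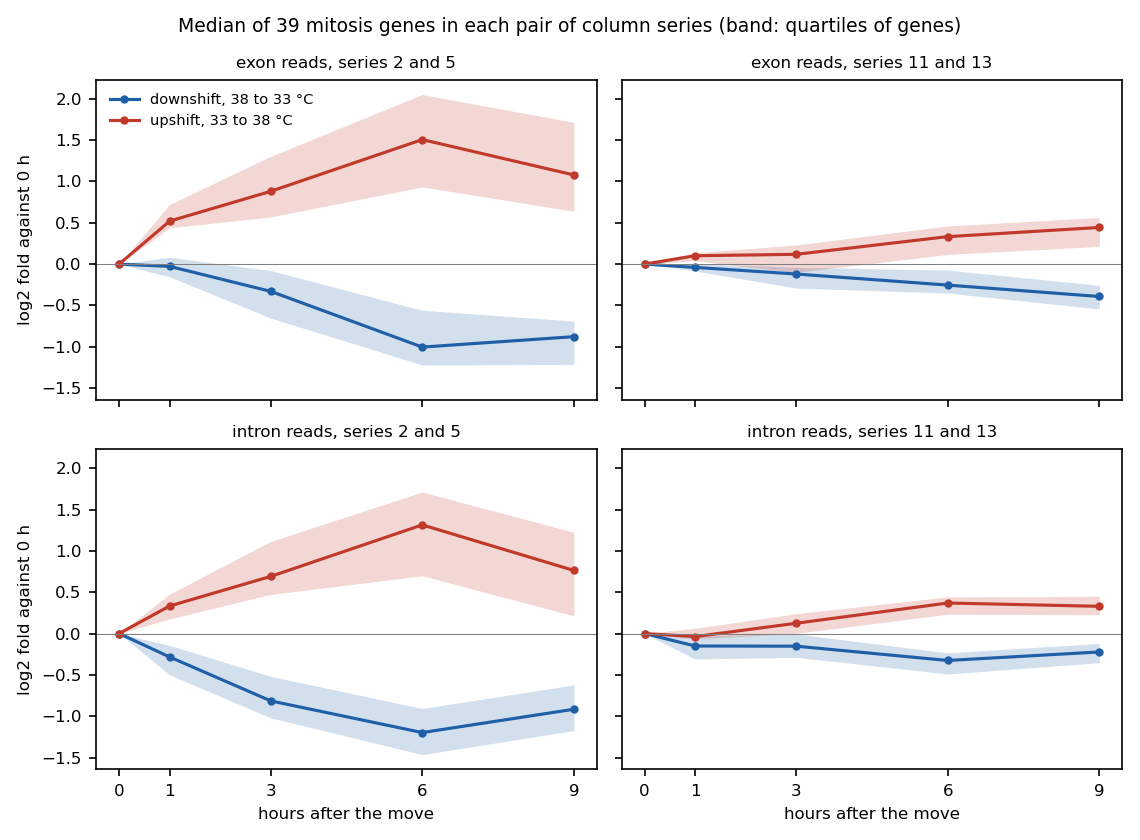
Median log2 fold of the 39 mitosis genes against 0 h of the same course, for exon reads (top) and intron reads (bottom), in series 2 and 5 (left) and in series 11 and 13 (right). Lines are medians over genes, bands the quartiles over genes, and each time has 1 column per course. The courses part in all 4 panels, to -0.88 and 1.08 at 9 h for exon reads of series 2 and 5 and to -0.39 and 0.44 for those of series 11 and 13.

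Intron reads, a measure of RNA not yet spliced, gave fewer calls, all in the direction of the exons. Of the 39 members 22 were lower in the difference between the shifts, against 3.05% of the 9349 genes tested on introns, with a median of -0.93 against 0.06 over those genes. After the downshift 9 fell and after the upshift 8 rose, each against 0.877% of genes. None was called the other way. Both counts were 0 in series 11 and 13, and leaving out 1 sample gave 0 to 21 calls after the downshift (0 without its own sample at 0, 3, 6 or 9 h) and 0 to 9 after the upshift (0 without its 6 h). Cenpa led with -2.29 ± 0.28 (SE; adjusted p = 0.00354), followed by Aurka at -2.001 ± 0.26 (SE; adjusted p = 0.00412) and Hmmr at -1.91 ± 0.26 (SE; adjusted p = 0.00508). The intron levels of Aurka were 9.27, 6.69, 5.51, 4.33 and 4.48 RPKM in the downshift and 2.92, 3.93, 5.18, 7.61 and 6.08 RPKM in the upshift. Those of Hmmr were 4.77, 3.3, 2.85, 2.05 and 2.47 and 1.78, 1.99, 2.7, 4.04 and 3.35 RPKM. For both the lowest downshift sample and the highest upshift sample were those at 6 h.

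Introns of Cenpa had 42.3, 31.5, 23.7, 16.5 and 19.3 RPKM in the downshift and 14.5, 16.4, 23.4, 36.8 and 30 RPKM in the upshift. In contrast to its exons they were already lower at 1 h of the downshift. Per length they exceeded the exons, which rests on GENCODE M21 lengths of 5860 exon and 2194 intron bases, and the lengths that the authors' counting used were not stated by any label. The introns of Gtse1 differed most within the first hour, going from 8.18 to 4.12 RPKM in the downshift and from 3.39 to 6.33 RPKM in the upshift, and its intron difference over 9 h was -1.22 ± 0.45 (SE; adjusted p = 0.122). At 0 h the intron level was at least 2-fold lower at 33 °C for 17 members, against 3.102% of genes, and lower for all 39. On the library sizes of the exon reads, the members' median log2 fold was -0.95, against -0.25 over all genes tested on introns. The lowest intron sample of the downshift was that at 6 h for 37 members, and the highest of the upshift was that at 6 h for 36. In series 13 alone the highest upshift sample was that at 6 h for 18 members and that at 9 h for 19, and in series 11 the lowest downshift sample was that at 6 h for 30.

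The intron calls in the difference numbered 3 in series 11 and 13, 8 with time in linear hours and 0 with the time point as a block, and between 9 and 24 when 1 sample was left out. Counting by strand is not stated, and 20 of the 39 members overlap another annotated gene.

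**Figure D4:**
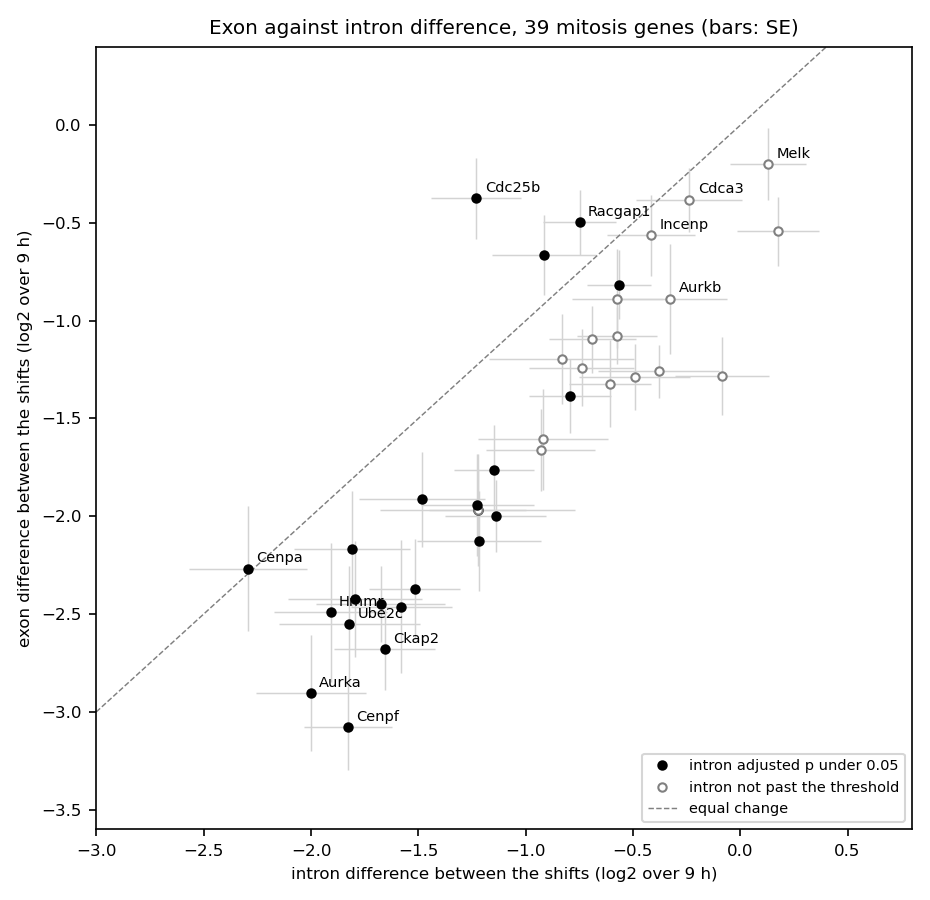
Exon difference (vertical) against intron difference (horizontal) between the shifts for the 39 mitosis genes, both as log2 change over 9 h with SE bars and each scaled to its own kind of reads. Filled points passed the intron test, and the dashed line marks equal change. Of the 39 points 35 lie below the line, and Cdc25b lies farthest above it.

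Whether exons and introns changed unequally was tested in 1 fit of both kinds of reads. The ratio of exon to intron reads had a median difference of -0.30 for the members, against 0.28 for all genes tested, on the library sizes of the exon reads, so the members lay 0.58 below that. Their median ran from -0.60 (without 0 h of the downshift) to -0.04 (without its 9 h) when 1 sample was left out, and was -0.08 in the step fit. Only Cdc25b was called, with a higher ratio in the difference, 1.19 ± 0.32 (SE; adjusted p = 0.0184), in a background of 15.9% of genes higher and 1.89% lower. Its introns had 5.28, 4.18, 3.72, 2.85 and 3.1 RPKM in the downshift and 2.48, 2.79, 3.38, 4.39 and 3.68 RPKM in the upshift, and their difference of -1.23 ± 0.21 (SE; adjusted p = 0.00971) was larger than that of its exons. Cdc25b shares part of its locus (chromosome 2, 131186949 to 131198497, plus strand, GRCm38) with Spef1 on the opposite strand. No member had a called lower ratio in this fit, and the closest were Birc5 at -0.87 ± 0.31 (SE; adjusted p = 0.0588) and Cenpf at -0.91 ± 0.34 (SE; adjusted p = 0.0736). Lower ratios were called for 2 members with limma and for 1 member each without 0 h of the downshift, without 1 h or without 9 h of the upshift, with no offset for the series and with series 10 added.

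The likeness of the members was measured as Pearson's r of log2(RPKM + 0.1) with the mean of the other members over the 10 samples. This describes these samples, which share their 2 courses, and carries no test. The median r was 0.916, and 20 members had at least 0.9. Cenpf (0.995), Tpx2 (0.991) and Plk1 (0.990) were most like the rest, and Melk (0.446), Aurkb (0.493), Cdca3 (0.496) and Incenp (0.526) least. Among genes outside the list, Aspm, a spindle pole protein, was nearest to the members' mean with r = 0.9908. Trim59, Ckap5 (a microtubule polymerase), Ccnb1 (cyclin B1) and Fv1 (a retrovirus restriction factor) came next. Their exon differences were -2.63 for Aspm, -2.14 for Trim59, -1.30 for Ckap5, -1.89 for Ccnb1 and -2.30 for Fv1, all called.

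Other genes of cell division were called in both directions, to be read against the 22.1% lower and 24.7% higher of all genes. Of 29 further kinetochore and centromere genes tested, 16 were lower in the difference and 2 higher, with a median of -0.57. The largest were Ska2 (-1.78), Cenph (1.38) and Kntc1 (-1.29), so Cenph, a subunit of the constitutive centromere network, went against the mitosis genes. Of 16 further checkpoint and cohesion genes 9 were lower and 2 higher, led by the shugoshins Sgol2 (-2.29) and Sgol1 (-1.25) and by Mad2l1 (-1.17), the checkpoint protein Mad2. Condensin had 5 of 8 lower and 2 higher, led by Ncapg (-1.33), Smc4 (-0.96) and Smc2 (-0.84). Of 16 genes of the anaphase-promoting complex 6 were lower and 2 higher, led by its coactivator Fzr1 (-1.51) and its ubiquitin-conjugating enzyme Ube2s (-1.48). Spindle pole and microtubule nucleation genes had 8 lower and 7 higher of 20, from Aspm (-2.63) and Cep55 (-2.25) to Tubgcp2 (1.45), a gamma-tubulin complex protein.

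Regulators of late cell cycle transcription had 3 lower and 5 higher of 16 and a median of -0.05, shares near the 22.1% and 24.7% of all genes. Foxm1, the activator of the late genes, was lower (-0.72 ± 0.15, SE; adjusted p = 0.00375), and so was Lin37 (-1.34), a subunit of DREAM and MuvB. Tfdp2 (1.72), a partner of E2F, and Rbl2 (1.131), the pocket protein p130 of DREAM, were higher. So was Mybl2 (0.848 ± 0.197, SE; adjusted p = 0.00598), the MYB of the activating MYB-MuvB, which went the opposite way to Foxm1. The G1/S and DNA replication list held 0 lower and 7 higher of 29, with a median of 0.23, and its share of higher calls lies near the 24.7% of all genes. Ccne1 (1.82), cyclin E1, Tk1 (1.63), thymidine kinase, and Chaf1b (1.62), a chromatin assembly subunit, were the largest. Whether these lists differ from the mitosis genes was not tested.

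**Figure D5:**
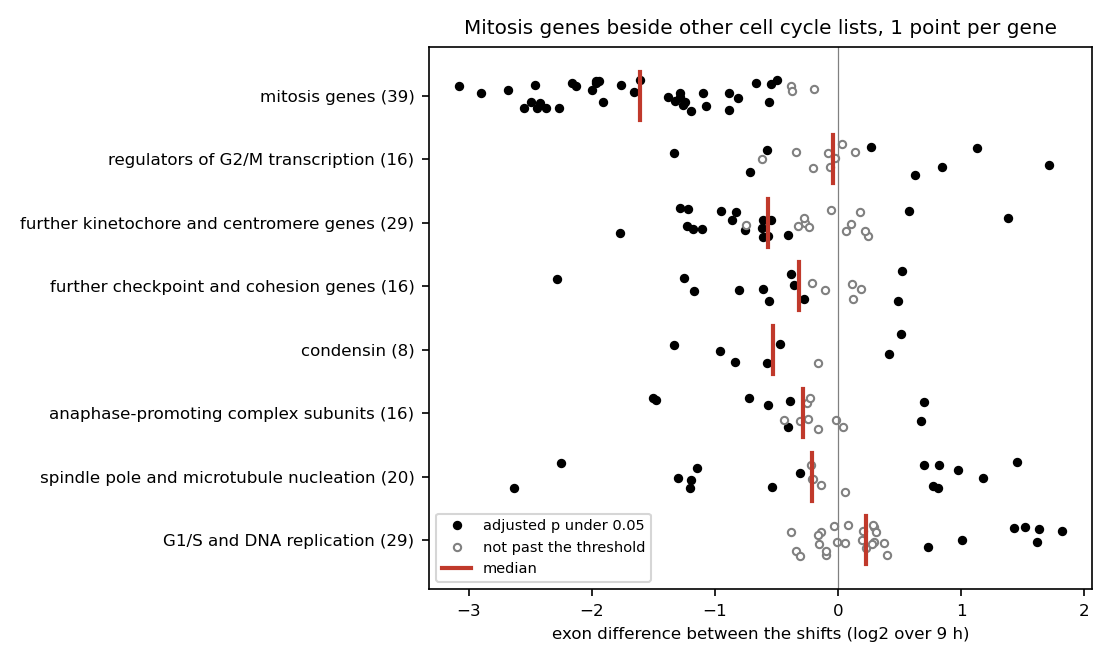
Exon difference between the shifts for the 39 mitosis genes and for the tested genes of 7 other cell cycle lists, 1 point per gene, in log2 over 9 h. Filled points passed the test at an adjusted p under 0.05, and red bars are medians. The mitosis genes lie below 0 throughout, with a median of -1.61, and the G1/S and DNA replication list has its called genes above 0.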

How the data were processed

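The deposited values are estimated counts (expected counts) of exon and intron reads per gene. The authors made these estimated counts from strand-specific, paired-end reads of rRNA-depleted total RNA with STAR, bedtools and the mm10 build, per the submitters' processing notes, which name no versions. The tables are titled as RPKM, but column totals differ, and whole numbers (within 1e-06) make up 22.9% of the exon values above 0. Rules for assigning reads to genes and strands were not given in these sources. Here counts were rounded and the columns of a sample summed, with an offset in the fit for each gene's ratio between the series. Series 10 (1 and 3 h of the downshift) served only an alternative. RPKM used TMM library sizes of exon reads and GENCODE M21 lengths, matched for 95.3% of genes. They were made without the offset for the series, so a change in the mix of series between samples stays in the levels and folds.

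edgeR 4.0.16 (R 4.3.3; TMM, quasi-likelihood) fitted each course a line on log2(h + 1). The filter was a mean of 1 exon RPKM (10172 genes), with 0.05 intron RPKM more for introns and ratios (9349 genes). SE is the absolute change divided by the square root of F. With 1 sample per time and no statement that cultures were separate, p-values measure only the scatter of these samples around the lines. Folds between samples carry no test and used pseudocounts of 0.1 RPKM for exons and 0.01 RPKM for introns. The fit was tested on simulated data. Alternatives used DESeq2 1.42.0, limma 3.58.1, other scalings, filters and time scales, each series pair, and the leaving out of each sample. Members, roles and lists were chosen with earlier results of these data known. By rule, values in every sample are given per role for the largest and smallest exon difference, for members not called, and for up to 3 called on introns or ratios, and up to 3 called genes are named per list. Plk1, Cdc25c, Aurkb, Gtse1, Cdc20, Pttg1, Foxm1 and Mybl2 were added after their values were seen.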

Additional observations from a re-analysis of the deposited data

Results flagged for a closer look

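The change of exon reads differed between the downshift and the upshift in 36 of the 39 mitosis genes, by the test of the difference between the slopes of the courses, and all 36 were lower after the downshift. The change of intron reads differed by the same test in 22 of the 39, a count that was 3 in series 11 and 13 and 0 with the time point as a block. Among all genes tested, 22.1% were lower and 24.7% higher on exons, and 3.05% were lower on introns.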

How the results depend on the processing

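Shares of all genes called by a test are given for the main fit only, so counts of members called in the alternatives have no such share beside them. Of the 36 exon calls in the difference between the shifts, 20 were kept in every alternative and 27 in every alternative but the step. Far fewer of the other calls were kept in every alternative, 2 of 30 after the downshift, 1 of 32 after the upshift and 0 of 22 in the intron difference. Without the step 18, 19 and 0 of these were kept. The step, which compares 0 h with 3, 6 and 9 h on 8 samples, gave 22 calls in the difference, 2 after the downshift, 3 after the upshift, 0 for the mean of the shifts and 0 for the ratio. Leaving out 1 sample gave 30 to 37 exon calls in the difference (fewest without 0 h of the upshift), 23 to 32 after the downshift (fewest without its 9 h), 20 to 33 after the upshift (fewest without its 0 h), 1 to 4 for the mean, 9 to 24 on introns (fewest without 0 h of the downshift) and 0 to 1 for the ratio. For the mean of the shifts, DESeq2 called 5 members, series 2 and 5 called 6 and series 11 and 13 called 0. Intron calls numbered 3 in series 11 and 13, 8 in linear hours and 0 with the time point as a block. The ratio call of Cdc25b was lost (0 calls) in series 2 and 5, in linear hours and with the block. The time point as a block, which pairs the courses by hour, left 32 exon calls in the difference.

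In series 11 and 13 the exon difference of Cdc25c was 0.43 and that of Racgap1 0.11, both turned in sign, as was the upshift change of Cdc25c (-0.07). At least 2-fold lower exons at 33 °C at 0 h numbered 1 there, and lower introns 1 there and 26 in series 2 and 5. Over all 9349 genes tested on introns, 387 were lower in series 11 and 13 and 801 in series 2 and 5. Counting from 0 to 9 h of the downshift, 17 members were 2-fold lower in series 2 and 5 and 0 in series 11 and 13, and at 9 h of the upshift 22 and 0 were 2-fold higher. Of all 10172 genes, 283 and 130 were lower and 288 and 82 higher in the same order. Against cells kept at 33 °C, 8 were 2-fold higher in series 2 and 5, 0 in series 11 and 13 and 0 with the larger pseudocount, and against cells kept at 38 °C 1 was lower in series 11 and 13. Over all 10172 genes, 283 were higher in the first of these comparisons and 186 lower in the last. With only the bases before the start, 11 members had a CHR element. The cause of these changes was not tested.

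Scaling introns by the exon libraries, added after seeing the data, shifted the intron difference of all genes by -0.34 and gave 32 intron calls. The members lay 0.98 below all genes on that scale and 0.99 on the main one. The labels give no replicate numbers shared between the courses, so the time point was the only pairing tried. The fewest reads of a member in a sample were 285 on exons (Cdkn3) and 226 on introns (Cdca3).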
